A study of Homo sapiens with 12 samples.

Results

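The genes described here are 10 interleukins and closely related genes, namely IL24, IL7R, IL6, IL11, LIF, IL1A, IL1B, IL18, IL32 and CSF2. They were taken by gene name from the count table, in which each had 1 row among 57187 genes, and all 10 passed the filter on low counts that left 17211 genes for testing. RNA-seq was carried out on 12 libraries, with 1 library for each of 3 conditions in 4 established human carcinoma lines. The breast is the origin of MDA-MB-231 and of HCC1954, and the ovary that of OVCAR8 and of SKOV3. SIVA-WT cells carried a stably integrated vector for wild-type SIVA, an apoptosis-related protein encoded by SIVA1, and SIVA-D160N cells carried the same vector with the D160N substitution. In each vector a CMV promoter drove SIVA, and the transfectants were polyclonal pools kept under antibiotic selection. The control of each line was labelled parental and untreated, whereas the study's methods describe an empty vector control, so transfection and selection cannot be told apart from the SIVA protein in any comparison with control. The question put to these genes was whether their mRNA levels moved with SIVA-WT or SIVA-D160N, and in which lines.

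Interleukins are secreted proteins through which cells signal to each other, and tumour cells of epithelial origin make several of them. IL1A and IL1B encode the 2 agonists that act on the IL-1 receptor, IL18 and IL32 encode further pro-inflammatory cytokines, and IL6, IL11 and LIF encode cytokines that share the signalling receptor chain gp130, encoded by IL6ST. IL24 belongs to the IL-10 family and acts through receptors of the IL-20 type, IL7R encodes the alpha chain shared by the receptors for IL-7 and TSLP, and CSF2 encodes the growth factor GM-CSF.

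The libraries held between 35791455 and 45890398 counted reads, so that a gene with no read was limited to less than 0.0838 CPM in the shallowest library, taking 3 counts as the limit that a count of 0 allows. CPM is the read count scaled by library size; this limit uses the library total, whereas all other levels given in CPM use the total after TMM scaling. SIVA1 itself was at 28.1 to 66.3 CPM in the controls of MDA-MB-231, OVCAR8 and SKOV3 and at 68.2 to 177 CPM in their transfectants, and reads of the transgene and of the endogenous gene cannot be told apart. The HCC1954 control had 0 SIVA1 reads against 1646 and 930 in its transfectants, so this control stands apart from the other 3, and the fits that rest on HCC1954 are given also without it. The markers matched the line names in part. ERBB2 was highest in HCC1954 and SKOV3, PAX8 was highest in OVCAR8 and SKOV3, and CDH1 had no more than 20 reads outside HCC1954. The ovarian marker WT1 was at 5.55 to 8.06 CPM in the breast line HCC1954. In OVCAR8 it was at 5.89 to 6.83 CPM and in SKOV3 at only 0.397 to 1.11 CPM. Of the breast markers, TFAP2C was higher in both breast lines than in the ovarian lines. GATA3 was highest in HCC1954, but it was at 1.79 to 2.86 CPM in MDA-MB-231 against 5.68 to 6.28 CPM in OVCAR8. EPCAM was lower in SKOV3 (0.359 to 0.768 CPM) than in MDA-MB-231 (1.86 to 2.31 CPM). VIM was at 3237 to 3932 CPM in MDA-MB-231, 2933 to 3255 in OVCAR8 and 3522 to 3804 in SKOV3. Among 14 leukocyte and endothelial markers, CD3D, MS4A1 and TYROBP had no read in any library and the leukocyte marker PTPRC had at most 27. The summed level of these markers was 0.874 to 69.2 CPM in controls, 0.762 to 67.7 in SIVA-WT and 0.640 to 41.2 in SIVA-D160N, its highest values being PECAM1 in HCC1954.

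For IL24, IL7R, IL1A, IL1B, IL6 and IL11 the 250 bases upstream of the RefSeq start site are shown, on GRCh38.p14 and in the direction of transcription, because the within-line differences are mainly of these genes. Capitals mark matches to 4 motifs searched on both strands in a window of 250 bases before to 50 after the start. The motifs were an NF-kB site (GGGNNNTTCC), an AP-1 site (TGANTCA), a STAT site (TTCNNNGAA) and a TATA box (TATAAA), and no matches overlapped in the sequences shown. IL24 is on the plus strand at chr1:206897443-206904139, and its upstream bases are chr1:206897193-206897442. IL7R is on the plus strand at chr5:35856891-35879603, with upstream bases chr5:35856641-35856890. IL1A and IL1B are neighbours on the minus strand of chromosome 2, at chr2:112773925-112784493 and chr2:112829751-112836779, with upstream bases chr2:112784494-112784743 and chr2:112836780-112837029. IL6 is on the plus strand at chr7:22727200-22731998, with upstream bases chr7:22726950-22727199, and IL11 is on the minus strand at chr19:55364382-55370463, with upstream bases chr19:55370464-55370713.
IL24: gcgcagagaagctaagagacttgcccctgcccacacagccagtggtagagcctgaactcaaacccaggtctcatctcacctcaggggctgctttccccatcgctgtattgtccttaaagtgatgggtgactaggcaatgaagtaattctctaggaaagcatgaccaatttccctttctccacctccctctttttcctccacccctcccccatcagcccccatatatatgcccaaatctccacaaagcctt
IL7R: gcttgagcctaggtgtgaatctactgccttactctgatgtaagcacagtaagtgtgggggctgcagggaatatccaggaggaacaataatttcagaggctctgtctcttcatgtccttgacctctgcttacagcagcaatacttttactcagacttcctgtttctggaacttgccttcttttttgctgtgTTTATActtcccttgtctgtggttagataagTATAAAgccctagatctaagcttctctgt
IL1A: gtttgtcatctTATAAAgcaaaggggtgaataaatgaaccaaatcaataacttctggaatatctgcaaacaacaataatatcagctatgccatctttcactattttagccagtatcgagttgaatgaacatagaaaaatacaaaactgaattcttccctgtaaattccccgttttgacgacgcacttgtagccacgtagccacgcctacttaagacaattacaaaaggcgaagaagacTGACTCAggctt
IL1B: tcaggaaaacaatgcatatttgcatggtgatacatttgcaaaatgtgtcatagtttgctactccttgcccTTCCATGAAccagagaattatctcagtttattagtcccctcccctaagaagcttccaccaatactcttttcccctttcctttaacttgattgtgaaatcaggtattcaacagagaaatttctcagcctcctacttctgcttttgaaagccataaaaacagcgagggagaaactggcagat
IL6: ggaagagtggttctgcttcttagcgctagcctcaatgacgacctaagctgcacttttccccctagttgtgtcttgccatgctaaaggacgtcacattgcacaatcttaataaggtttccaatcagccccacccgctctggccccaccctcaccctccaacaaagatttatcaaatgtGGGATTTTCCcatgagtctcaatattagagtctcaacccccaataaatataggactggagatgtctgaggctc
IL11: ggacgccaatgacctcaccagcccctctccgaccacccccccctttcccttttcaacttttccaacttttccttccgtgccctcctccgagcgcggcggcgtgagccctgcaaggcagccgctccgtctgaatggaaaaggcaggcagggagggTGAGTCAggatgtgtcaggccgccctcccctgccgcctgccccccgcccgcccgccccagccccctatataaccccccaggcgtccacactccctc

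The window of IL24 held none of the 4 motifs. IL7R held TATA box matches that began at positions -60 and -29 from the start, where 11.5% of 35116 RefSeq promoters held at least 1. IL1A held a TATA box match at -239 and AP-1 matches at -12 and at 39, the latter past the bases shown, and IL11 held 1 at -96, against 7.71% of all promoters. IL1B held a STAT match at -180 (7.66% of promoters) and IL6 an NF-kB match at -73 (6.52% of promoters). These are matches of letters in a short window and say nothing of the binding of a factor. Of the other members with a RefSeq promoter, IL32 held an NF-kB match at -99 and CSF2 a STAT match at -190. IL1A and IL32 each had another RefSeq start site, further downstream, besides the one described. Counted from that site, the IL1A window held AP-1 matches at -105 and -55 and no TATA box match. The other IL32 window held none of the 4 motifs. LIF lies at chr22:30240453-30246759, IL18 at chr11:112143260-112164094, IL32 at chr16:3065403-3069530 and CSF2 at chr5:132073789-132076170. The end of IL24 overlaps FCMR, whose own counts ran from 0 to 173, and IL6 and LIF overlap annotated antisense genes. The library kit keeps strand information, but the strand setting used for counting was not given in the sources used here.

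**Figure D1:**
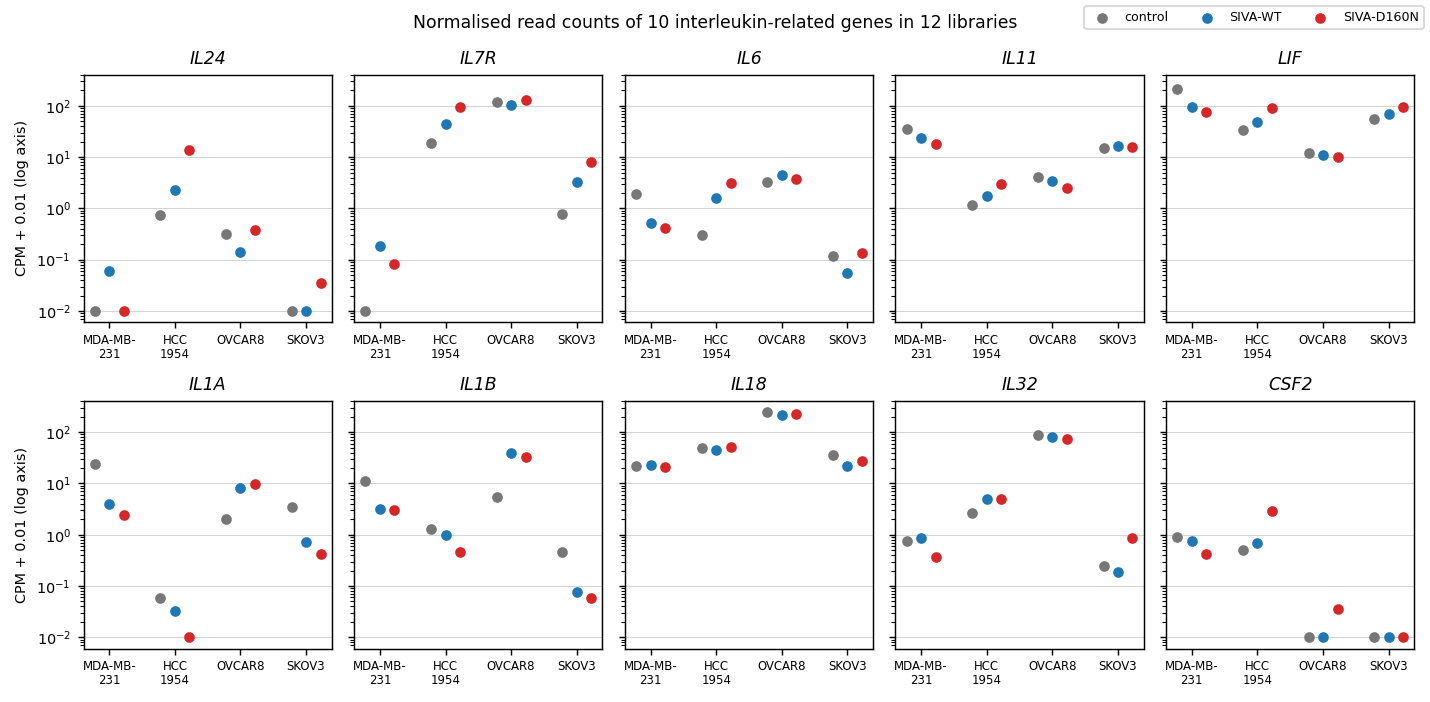
Normalised read counts of the 10 genes in the 12 libraries, plotted as CPM plus 0.01 on a log axis, with 1 panel per gene, the 4 lines along the horizontal axis and 1 point per library coloured by condition. IL24 reached 13.9 CPM only in HCC1954 SIVA-D160N, IL18 and IL32 sat far higher in OVCAR8 than elsewhere, and IL1A and IL1B lay below control in MDA-MB-231 and SKOV3 but above it in OVCAR8.

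IL24 was detected at more than 1 CPM in HCC1954 alone among the 4 lines, and there it was highest with SIVA-D160N. In HCC1954 it had 31 reads in the control, 100 in SIVA-WT and 487 in SIVA-D160N, or 0.744, 2.32 and 13.9 CPM. In the same order of conditions, OVCAR8 had 11, 5 and 14 reads, MDA-MB-231 had 0, 2 and 0 and SKOV3 had 0, 0 and 1. Thus 1 library held most IL24 reads of the series, and outside HCC1954 the conditions overlapped. Within HCC1954 the SIVA-D160N library was 18.7-fold above its control (95% counting interval 13.0 to 27.8) and 5.99-fold above SIVA-WT (4.82 to 7.50), and SIVA-WT was 3.12-fold above the control (2.07 to 4.83). These intervals cover counting error only, since a line had 1 library per condition. In the edgeR quasi-likelihood fit over all lines, with a term for the line, the log2 fold change of SIVA-D160N over control was 2.86 ± 0.78 (SE; adjusted p = 0.185) and that over SIVA-WT was 2.05 ± 0.68 (adjusted p = 0.719). Without HCC1954, IL24 no longer passed the filter on low counts and was not tested. The difference of the SIVA-D160N effect between tissues, ovarian minus breast lines, was -3.65 ± 1.11 on the log2 scale (SE; edgeR adjusted p = 0.964), which did not pass the threshold. It could not be tested without HCC1954, for the same reason.

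IL7R ranged from almost no reads in MDA-MB-231 to 103 to 131 CPM in OVCAR8, and it was higher in the transfectants than in the control of HCC1954 and SKOV3. In HCC1954 it had 783 reads in the control, 1924 in SIVA-WT and 3347 in SIVA-D160N, or 18.8, 44.7 and 95.5 CPM. In SKOV3 it had 29, 143 and 320 reads, or 0.768, 3.2 and 7.88 CPM, in the same order. OVCAR8, the line with the highest level, had 118, 103 and 131 CPM, and MDA-MB-231 had 0, 7 and 3 reads. SIVA-D160N lay above the control in all 4 lines, although in MDA-MB-231 this rests on 3 reads against 0, and the levels of the 3 conditions overlapped over lines. SIVA-D160N was 5.09-fold above the control in HCC1954 (counting interval 4.70 to 5.50), 10.3-fold in SKOV3 (7.01 to 15.6) and 1.11-fold in OVCAR8 (1.06 to 1.16). It was also above SIVA-WT, by 2.14-fold in HCC1954 (2.02 to 2.26) and 2.46-fold in SKOV3 (2.01 to 3.02). Over the 4 lines the log2 fold change of SIVA-D160N over control was 1.66 ± 0.44 (SE; edgeR adjusted p = 0.176), and without HCC1954 it was 1.24 (adjusted p = 0.494). Leaving out OVCAR8 gave 2.68 (adjusted p = 0.0624), and the value for IL24 then was 4.06 (adjusted p = 0.0709). A two-sided exact sign-flip permutation test over the 4 within-line log2 ratios gave the smallest p that 4 lines allow, 2 of 16 sign patterns being as extreme, so this design cannot reach 0.05.

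IL1A and IL1B lay below the control in the transfectants of MDA-MB-231 and SKOV3 and above it in those of OVCAR8. In MDA-MB-231, IL1A had 1086 reads in the control, 154 in SIVA-WT and 101 in SIVA-D160N, or 24.0, 3.89 and 2.45 CPM. In SKOV3 it had 128, 32 and 17 reads, or 3.39, 0.717 and 0.419 CPM. In OVCAR8 it had 75, 315 and 365 reads, or 2.06, 8.28 and 9.55 CPM. The control was thus the highest library in MDA-MB-231 and SKOV3 and the lowest in OVCAR8, and HCC1954 had at most 2 reads. The SIVA-D160N library was 9.79-fold below control in MDA-MB-231 (counting interval 7.98 to 12.1) and 8.10-fold below in SKOV3 (4.86 to 14.3), while it was 4.64-fold above control in OVCAR8 (3.61 to 6.04). SIVA-WT gave ratios of the same sign, 6.17-fold and 4.73-fold below control and 4.03-fold above it.

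IL1B followed IL1A in each of these lines. It had 495, 124 and 127 reads in control, SIVA-WT and SIVA-D160N cells of MDA-MB-231, or 10.9, 3.13 and 3.09 CPM. In OVCAR8 it had 199, 1470 and 1235 reads, or 5.45, 38.6 and 32.3 CPM. In SKOV3 it had 17, 3 and 2 reads and in HCC1954 53, 43 and 16. Both transfectants lay below the control in MDA-MB-231, HCC1954 and SKOV3 and above it in OVCAR8. SIVA-D160N was 3.55-fold below control in MDA-MB-231 (2.91 to 4.35) and 5.92-fold above control in OVCAR8 (5.10 to 6.91), where SIVA-WT was 7.08-fold above (6.10 to 8.25). In SKOV3 the ratio of SIVA-D160N to control was 0.109, with a wide counting interval of 0.0123 to 0.461. IL1A and IL1B had a Pearson correlation of 0.94 over the 12 libraries once each line's mean was removed, a description of points that share lines and libraries.

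The balance between the 2 transcripts differed by line. The count of IL1A over that of IL1B was 2.19, 1.24 and 0.795 in control, SIVA-WT and SIVA-D160N of MDA-MB-231 and 0.377, 0.214 and 0.296 in OVCAR8, and it was 7.53 in the SKOV3 control. These ratios are of counts and are not adjusted for the lengths of the genes.

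IL6, IL11 and LIF, the 3 cytokines that signal through gp130, were lower in the transfectants of MDA-MB-231 and higher in those of HCC1954. IL6 had 84 reads in the MDA-MB-231 control, 20 in SIVA-WT and 17 in SIVA-D160N, and 12, 69 and 111 in the same order in HCC1954. OVCAR8 had 118, 168 and 143 reads of it, and SKOV3 had no more than 5. Relative to control, SIVA-D160N was 4.50-fold lower for IL6 in MDA-MB-231 (counting interval 2.65 to 8.08) and 11-fold higher in HCC1954 (6.06 to 21.9). LIF, the most abundant of the 3, had 216, 93.5 and 75.9 CPM in control, SIVA-WT and SIVA-D160N of MDA-MB-231 and 33.9, 48.2 and 89.8 CPM in HCC1954. It had 56.2, 68.1 and 93.0 CPM in SKOV3 and 12, 11.1 and 9.94 CPM in OVCAR8. SIVA-WT lay between the control and SIVA-D160N for LIF in all 4 lines, and for IL1A in the 3 lines that had more than 2 reads of it. Among the other members it lay between them in 3 lines for IL11 and IL1B and in 2 for IL7R, IL6, IL32 and CSF2. This was so in 1 line for IL24 and in 0 for IL18. The share over all genes was not taken, and this order was not tested. LIF was 2.84-fold below control with SIVA-D160N in MDA-MB-231 (2.73 to 2.96) and 2.65-fold above control in HCC1954 (2.49 to 2.82). IL11 had 35.7, 23.5 and 17.8 CPM in MDA-MB-231 and 1.18, 1.72 and 2.94 CPM in HCC1954. Its levels in SKOV3 were 15, 16.4 and 15.9 CPM, and in OVCAR8 they were 4.14, 3.44 and 2.49 CPM.

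CSF2, which encodes GM-CSF, was found in the breast lines only, apart from 1 read in OVCAR8. It had 21 reads in control, 29 in SIVA-WT and 99 in SIVA-D160N of HCC1954, and 41, 29 and 17 in MDA-MB-231. SIVA-D160N was 5.61-fold above control in HCC1954 (3.48 to 9.46) and 2.20-fold below it in MDA-MB-231 (1.22 to 4.12). The 2 breast lines thus went opposite ways, as for IL6, IL11 and LIF.

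IL18 and IL32 differed far more between lines than between conditions. IL18 had 246, 212 and 229 CPM in control, SIVA-WT and SIVA-D160N of OVCAR8, and between 21.2 and 52.3 CPM in the libraries of the other lines. Its largest ratio to control was the 1.64-fold lower level of SIVA-WT in SKOV3 (1.51 to 1.78). IL32 had 86.0, 81.4 and 73.1 CPM in OVCAR8, 2.66, 4.90 and 4.91 CPM in HCC1954 and less than 1 CPM in each library of MDA-MB-231 and SKOV3. In SKOV3 it had 9 and 8 reads in control and SIVA-WT and 35 in SIVA-D160N, a ratio to control of 3.62 (1.70 to 8.55).

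**Figure D2:**
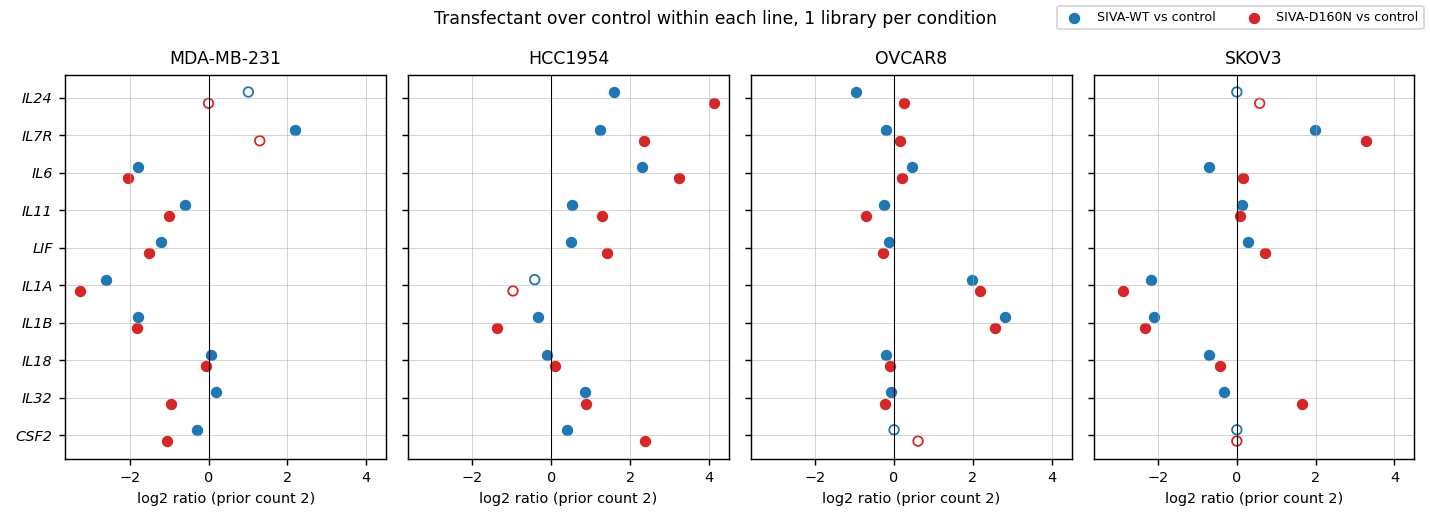
Log2 ratio of each transfectant to the control of its own line, computed on CPM with a prior count of 2, for the 10 genes in the 4 lines; each point is 1 library against 1 library, and open circles mark pairs in which both libraries had at most 3 reads. IL6, IL11, LIF, IL1A and IL1B lay left of 0 in MDA-MB-231, IL6, IL11 and LIF lay right of it in HCC1954, and IL1A and IL1B lay right of it in OVCAR8.

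Within lines, 2-fold differences were counted on the log2 scale with a prior count of 2. With SIVA-D160N, MDA-MB-231 had 7 of the 10 genes at least 2-fold from control (6.82% of all genes tested), HCC1954 had 7 (10.2%), OVCAR8 had 2 (3.51%) and SKOV3 had 4 (8.74%). With SIVA-WT the count was 6 for MDA-MB-231 (4.57% of all genes), 3 for HCC1954 (4.49%), 2 for OVCAR8 (3.16%) and 3 for SKOV3 (5.79%). The direction with SIVA-D160N was downward for 6 of 7 in MDA-MB-231 and upward for 6 of 7 in HCC1954. The shares given are for both directions together. The split by direction over all genes was not taken, so these counts have no baseline. The genes counted as higher in MDA-MB-231 were IL7R and, with SIVA-WT, IL24, all from 0 reads in the control to at most 7. Both comparisons used the same control library of a line, so they are not independent.

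When the 4 lines were treated as replicates, none of the 10 genes passed the thresholds of the study (adjusted p under 0.05 and a log2 fold change of at least 1.5) in any comparison of conditions. The study itself, with edgeR and these thresholds, lists IL24 and IL7R among its genes that differed between SIVA-D160N and control. The fit here called 1 gene of 17211 in that comparison. The study does not give the terms of its model, and the reason for the difference was not tested. In SIVA-D160N against control edgeR called 0 of the 10 genes (0.00581% of all genes), and limma-voom also called 0 (0.157%), as did DESeq2 among the 7 members to which it gave an adjusted p (0.0909%), which leaves out IL24, IL6 and CSF2. IL24 and IL7R were the 2 members with an unadjusted p under 0.05, where 14.2% of all genes had one. In SIVA-WT against control edgeR called 0 members (0% of all genes), DESeq2 and limma-voom 0, and 0 members had an unadjusted p under 0.05 (2.54% of all genes). In SIVA-D160N against SIVA-WT edgeR and limma-voom called 0 members (0% and 0.00581% of all genes), as did DESeq2 among the 7 without IL24, IL6 and CSF2 (0.0227%), and only IL24 had an unadjusted p under 0.05 (6.88% of all genes). The median log2 fold change of the 10 genes in these comparisons was 0.17, -0.12 and 0.21, beside -0.01, -0.01 and -0.00 over all genes.

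IL1A had a log2 fold change of -1.81 ± 0.86 (SE; edgeR adjusted p = 0.367) for SIVA-D160N over control, and without OVCAR8 it was -3.15 and passed the threshold (adjusted p = 0.0276), as did 0.0109% of all genes in that fit. Without MDA-MB-231 it was -0.63 (adjusted p = 0.863), without SKOV3 -1.22 (0.664) and without HCC1954 -1.75 (0.570), a fit that called 0.0111% of all genes and 0 members. IL1B had -0.76 ± 0.77, IL6 0.26 ± 0.71, LIF 0.08 ± 0.36 and IL11 -0.16 ± 0.29, with adjusted p of 0.687 to 0.949 in edgeR. CSF2 had 0.97 ± 0.72, IL32 0.28 ± 0.35 and IL18 -0.13 ± 0.12. When HCC1954 was left out, IL6 had -0.78, CSF2 -0.92, LIF -0.39 and IL11 -0.55 on the same scale (edgeR adjusted p from 0.453 to 0.741). No member differed between tissues in its response to SIVA-D160N by the edgeR interaction term (0 of 10, against 0.00581% of all genes), and only IL24 had an unadjusted p under 0.05 (5.06% of all genes), while DESeq2 also called 0.

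**Figure D3:**
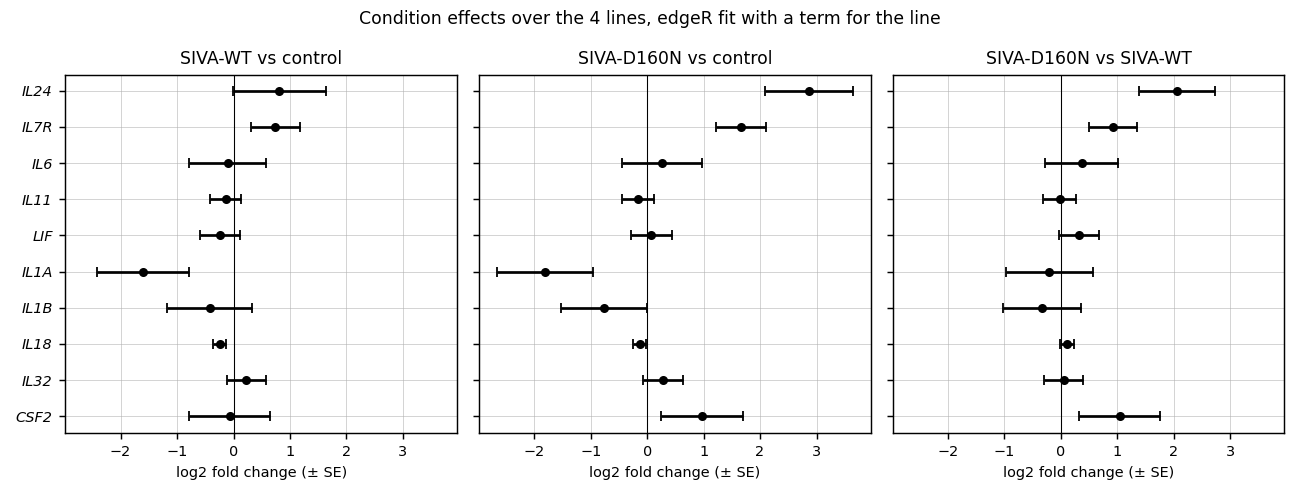
Log2 fold change with its standard error for the 10 genes in 3 comparisons of conditions, from the edgeR fit over the 12 libraries with a term for the line. IL24 at 2.86 and IL7R at 1.66 lie furthest to the right for SIVA-D160N over control, and IL1A at -1.81 lies furthest to the left with a standard error of 0.86.

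The differences among lines were then fitted directly, with both transfectants of a line set against its control. This fit was added after the data were seen, and its spread comes from the difference between SIVA-WT and SIVA-D160N within lines, with 1 control library per line. In MDA-MB-231, 5 of the 10 genes were lower with an unadjusted p under 0.05 (7.79% of all genes lower), namely IL6, IL11, LIF, IL1A and IL1B, and 0 were higher (6.61%). In HCC1954, 5 were higher (7.15% of all genes), namely IL24, IL7R, IL6, IL11 and LIF, and 0 were lower (4.83%). In OVCAR8, IL1A and IL1B were the 2 higher (6.45% of all genes) and 0 were lower (2.16%). In SKOV3, IL7R was the 1 higher (5.55%), and IL1A, IL1B and IL18 were the 3 lower (6.87%).

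At the adjusted threshold edgeR called 0 members in each line, beside a share of all genes of 0% for MDA-MB-231, 0.0174% for HCC1954, 0% for OVCAR8 and 0.116% for SKOV3. The smallest adjusted p was that of IL1A in SKOV3, at -2.56 ± 0.40 (SE; edgeR adjusted p = 0.0659), followed by IL1A in MDA-MB-231 at -2.92 ± 0.34 (adjusted p = 0.0875). IL1B had -1.81 ± 0.30 in MDA-MB-231 and 2.70 ± 0.34 in OVCAR8 (edgeR adjusted p = 0.114 and 0.218). DESeq2 called IL1B in MDA-MB-231 (0.295% of all genes with an adjusted p), IL6 in HCC1954 (0.411%) and IL7R, IL1A and IL1B in SKOV3 (0.822%). It gave no adjusted p to IL1A in MDA-MB-231 or to IL1A and IL1B in OVCAR8. Limma-voom called IL1A in MDA-MB-231 (0.0174% of all genes), and in SKOV3 it called 0 members (0.093%).

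The test of whether the transfectant effect differed among the 4 lines gave an unadjusted p under 0.05 for 6 of the 10 genes, IL7R, IL6, IL11, LIF, IL1A and IL1B, where 15.5% of all genes had one. IL1B ranked at 6 and IL1A at 8 of 17211 genes by p in this test (edgeR adjusted p = 0.0888 and 0.145). IL6 followed at 98 (edgeR adjusted p = 0.164) and LIF at 393 (adjusted p = 0.188). At an adjusted p under 0.05 edgeR called 0 members, beside 0.00581% of all genes. Among the 3 lines without HCC1954, an alternative added after the data were seen, the same test called 4 of the 9 members tested, beside 4.23% of all genes. These were IL1B (edgeR adjusted p = 0.000212), IL1A (0.00187), LIF (0.0175) and IL6 (0.0445), whereas IL11 (0.151) and IL7R (0.0632) were not called. The tissue term of the SIVA-D160N effect called 0 of the 9 members without HCC1954 (0.00554% of all genes), and 2 had an unadjusted p under 0.05 (6.74% of all genes).

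**Figure D4:**
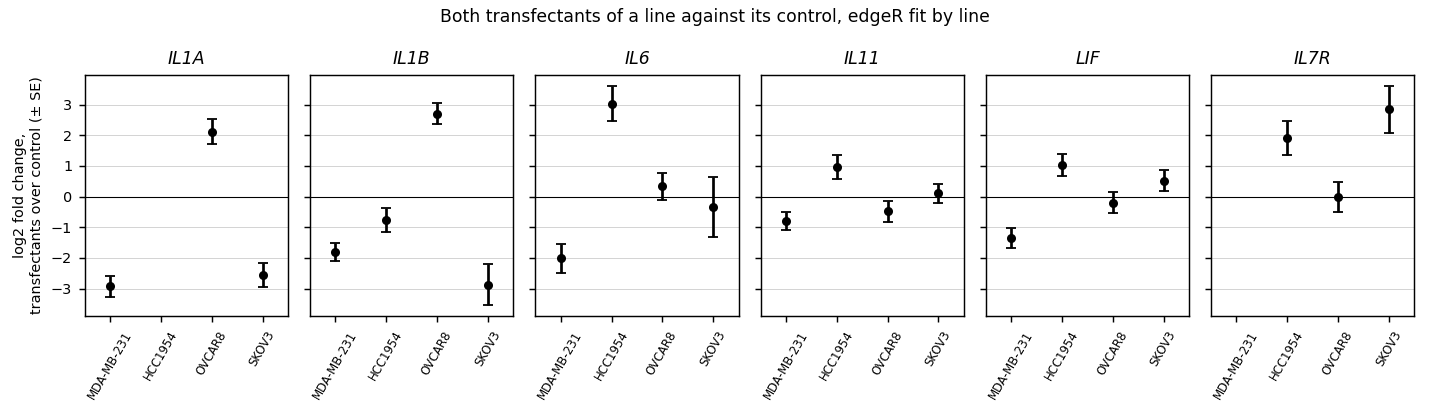
Log2 fold change of both transfectants over the control of a line, with its standard error, from the edgeR fit by line, for 6 genes in the 4 lines; lines whose control had at most 3 reads are left out. IL1A was at -2.92 in MDA-MB-231, at -2.56 in SKOV3 and at 2.11 in OVCAR8, and IL1B took the same signs, whereas IL6, IL11 and LIF were lowest in MDA-MB-231 and highest in HCC1954.

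All 10 genes were expressed at different levels in different lines. By the edgeR test of the line term, 10 of the 10 genes differed among lines, as did 93.9% of all genes, with adjusted p from 2.49e-09 for IL18 to 0.00122 for IL6. Taken per length, as RPKM (the CPM divided by the kilobases of exon), the highest line mean among the 10 genes was that of IL18 in OVCAR8, at 88.0 ± 6.45 RPKM (SD, n = 3 libraries, 1 of each condition). LIF followed with 33.2 ± 19.7 RPKM in MDA-MB-231, IL32 with 25 ± 2.04 in OVCAR8 and IL7R with 19.5 ± 2.33 in OVCAR8. IL24 reached a line mean of only 2.86 ± 3.63 RPKM in HCC1954, CSF2 of 1.69 ± 1.64 in HCC1954 and IL6 of 0.879 ± 0.137 in OVCAR8.

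OVCAR8 was the highest line for IL7R, IL6, IL1B, IL18 and IL32, MDA-MB-231 for IL11, LIF and IL1A, and HCC1954 for IL24 and CSF2. IL7R followed the order OVCAR8 at 118 ± 14.0 CPM (SD, n = 3), HCC1954 at 53.0 ± 39.0, SKOV3 at 3.95 ± 3.61 and MDA-MB-231 at 0.0833 ± 0.0889, and each neighbouring pair differed past the thresholds. IL24 was below HCC1954 in OVCAR8, at 0.266 ± 0.121 CPM, and MDA-MB-231 and SKOV3 at the bottom of the order did not differ past the thresholds. Over 6 pairs of lines, 44 of 60 tests of the members passed. The share of members called was 6 of 10 between HCC1954 and MDA-MB-231 (30.6% of all genes), 9 between OVCAR8 and MDA-MB-231 (24.2%) and 5 between SKOV3 and MDA-MB-231 (27.8%). It was 8 between OVCAR8 and HCC1954 (30.6%), 7 between SKOV3 and HCC1954 (29.3%) and 9 between SKOV3 and OVCAR8 (28.1%). Among neighbours in the order, IL6 did not differ past the thresholds between OVCAR8 and HCC1954 or between HCC1954 and MDA-MB-231, IL11 did not between MDA-MB-231 and SKOV3 or between OVCAR8 and HCC1954, and LIF did not among MDA-MB-231, SKOV3 and HCC1954. The same held for IL1A between MDA-MB-231 and OVCAR8, for IL1B between HCC1954 and SKOV3, for IL18 among the 3 lines other than OVCAR8, for IL32 between MDA-MB-231 and SKOV3, and for CSF2 within each tissue. Some of these missed only the fold limit. On the log2 scale IL18 had 1.14 for HCC1954 minus MDA-MB-231 (edgeR adjusted p = 1.71e-05) and -0.81 for SKOV3 minus HCC1954 (0.000245). For SKOV3 minus MDA-MB-231 IL18 had 0.33 (0.0471), and LIF had -1.18 for HCC1954 minus MDA-MB-231 (0.0250). Since the 3 libraries of a line differed in condition, these tests measure the spread among libraries of a line and not among cultures.

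The receptors and partners of these cytokines were read from lists of genes named by pathway. In the list of 21 IL-1 family genes, 14 were tested and 0 passed the thresholds in SIVA-D160N against control, with 1 of them, CASP1, lower at an unadjusted p under 0.05. Over all genes 14.2% had such a p in this comparison, in either direction, which is the share to set beside the counts of each list. CASP1, the protease that matures IL-1 beta and IL-18, had 933, 789 and 301 reads in control, SIVA-WT and SIVA-D160N of HCC1954 and a log2 fold change over lines of -1.03 (edgeR adjusted p = 0.161). The IL-1 receptor chains IL1R1 and IL1RAP were read in every library, whereas PYCARD, an inflammasome adaptor, had no read in any. The antagonist IL1RN was found in HCC1954 (294, 246 and 502 reads) and had at most 2 reads in the other lines.

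In the gp130 list of 17 genes, 15 were tested and 0 passed in SIVA-D160N against control, 1 higher and 3 lower at an unadjusted p under 0.05. IL6ST, which encodes gp130, had 68.2 to 171 CPM and the LIF receptor gene LIFR 9.10 to 67.1 CPM over the 12 libraries. IL6R, the receptor of IL-6, had a log2 fold change of 0.46 (edgeR adjusted p = 0.305). In the IL-24 list of 10 genes, 6 were tested and 0 passed, with 1 lower at an unadjusted p under 0.05. The receptor gene IL20RA had 492, 356 and 145 reads in HCC1954, the line with IL24 reads, and IL20RB 45, 58 and 42. Over lines IL20RB had a log2 fold change of -0.73 (edgeR adjusted p = 0.376) and IL20RA of -0.67 (adjusted p = 0.607).

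In the IL-7 and TSLP list of 9 genes, 6 were tested and 0 passed, with 1 of them, JAK3, lower at an unadjusted p under 0.05 (log2 fold change -0.66, edgeR adjusted p = 0.247). IL2RG, the chain that pairs with IL7R in the IL-7 receptor, had at most 8 reads in any library, and CRLF2, its counterpart in the TSLP receptor, at most 17. IL7 itself had a log2 fold change of -0.28 (adjusted p = 0.769). In the colony-stimulating factor list of 9 genes, 3 were tested and 0 passed, and 0 had an unadjusted p under 0.05. CSF2RB, the signalling chain of the GM-CSF receptor, had at most 5 reads, and over lines CSF1R had a log2 fold change of 0.51 and CSF1 of -0.43 (edgeR adjusted p = 0.601 and 0.399).

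In the list of 19 NF-kB factors and feedback genes all were tested and 0 passed, with 1 higher and 1 lower at an unadjusted p under 0.05. TNFAIP3, which restrains NF-kB signalling, had a log2 fold change of 0.59 and TRAF1, an adaptor of TNF receptors, of 0.57 (edgeR adjusted p = 0.536 and 0.657). Both were highest in HCC1954 SIVA-D160N relative to their line's control, with 340, 503 and 1298 reads for TNFAIP3 and 44, 65 and 245 for TRAF1. Among the 14 leukocyte and endothelial markers 4 were tested and 0 passed, with 2 lower at an unadjusted p under 0.05. PECAM1 had -1.19 and VWF -0.95 (edgeR adjusted p = 0.241 and 0.209). The list medians lay between -0.34 and 0.06, beside -0.01 over all genes. In SIVA-WT against control and in SIVA-D160N against SIVA-WT edgeR called 0 genes of these lists as well, and DESeq2 and limma-voom called 0 genes of the lists in each of the 3 comparisons. In SIVA-WT against control 0 genes of the lists had an unadjusted p under 0.05 in edgeR (2.54% of all genes). In SIVA-D160N against SIVA-WT 6.88% of all genes had one. Of the 15 gp130 genes tested 1 was higher and 2 were lower at such a p. Lower were also 2 of 4 leukocyte and endothelial markers, 1 of 14 IL-1 family genes and 1 of 6 IL-7 and TSLP genes. The other lists had 0.

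The genes whose levels followed IL24 and IL7R most closely over the 12 libraries were found by Pearson correlation of log2 CPM as a description. Each line's mean was removed first, and the members and the genes of the lists above were left out of this search. For IL24 they were CAV2 (0.98), ZCCHC4 (0.95) and RNF20 (0.94), and the IL24 profile rests on the 3 HCC1954 libraries. In control, SIVA-WT and SIVA-D160N of HCC1954, IL24 had 31, 100 and 487 reads. CAV2 had 2476, 2902 and 3633 there, ZCCHC4 316, 395 and 424 and RNF20 2474, 2741 and 2535, so the sizes of change were far smaller. For IL7R the closest genes were CNN3 (0.96), ZNF788 (0.96) and VSTM1 (0.96). CNN3, a calponin, had 10696, 18946 and 22490 reads in control, SIVA-WT and SIVA-D160N of SKOV3, the line in which IL7R had 29, 143 and 320. In HCC1954 CNN3 had 9247, 11895 and 10790 reads, against 783, 1924 and 3347 of IL7R. The other matches rest on few reads in these lines. ZNF788 had 3, 6 and 5 in HCC1954 and 12, 30 and 35 in SKOV3. VSTM1 had 0, 1 and 2 in HCC1954 and 1, 6 and 9 in SKOV3. Among the members, IL11 and LIF correlated at 0.89, IL6 and LIF at 0.86 and IL24 and CSF2 at 0.86, while IL7R and IL1A correlated at -0.75. These values share libraries, lines and depth, and no test was made of them.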

How the data were processed

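Total RNA of 12 libraries was extracted with Trizol and prepared with a stranded mRNA kit. Per the labels, the authors used FastQC, STAR 2.5.3a and edgeR with GRCh38. They deposited a table of raw read counts per gene, with no normalization. The gene counts were taken from the STAR output, and the annotation release was not given in the sources used here. A deposited CPM table was not used. Totals ran from 35791455 to 45890398.

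The 10 members and the gene lists were chosen with earlier results of these data known, and all members are named. For each list, the 2 genes with the largest log2 fold change in SIVA-D160N against control are named, and for IL24 and IL7R the 3 most correlated genes outside the members and lists. A gene that this rule would name is not reported here. Counts were fitted for all genes with edgeR 4.0.16 (TMM, filterByExpr, quasi-likelihood test, R 4.3.3), with terms for line and condition, and p-values were adjusted by Benjamini-Hochberg over 17211 genes. Calls needed an adjusted p under 0.05 and a log2 fold change of at least 1.5. Same-line libraries correlated at 0.929 to 0.968 in their deviations from condition means, so the line was kept as a replicate block. Nothing says that libraries came from separate cultures, so p-values measure only the spread between these samples. Within-line ratios carry exact 95% counting intervals, which cover counting error only. DESeq2 1.42.0 and limma 3.58.1 were alternatives, as were other scalings, no filter and leaving out each line. RPKM used exon lengths from GENCODE. Upstream sequences and positions came from RefSeq (GRCh38.p14), matched by symbol for 10 members and, for promoters, 8. The fits were tested on simulated data.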

Additional observations from a re-analysis of the deposited data

Results flagged for a closer look

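In sets of 4 lines, a library was marked when its gap to the next line was a large share of the set's range. Of 60 sets of CPM values or within-line log2 ratios, 14 were marked. No count expected by chance applies, since lines differ in level for most genes and the 3 conditions of a gene repeat the same lines. Most of the marked sets repeat the level of 1 line. OVCAR8 was far above the other lines for IL18 in control, SIVA-WT and SIVA-D160N (246, 212 and 229 CPM), for IL32 in the same order (86.0, 81.4 and 73.1 CPM), for IL7R in the control (118 CPM) and for IL1B in SIVA-WT and SIVA-D160N (38.6 and 32.3 CPM). MDA-MB-231 was far above the others for IL1A in the control (24.0 CPM).

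HCC1954 was far above the other lines for IL24 in SIVA-WT and SIVA-D160N (2.32 and 13.9 CPM), for the log2 ratio of IL24 in SIVA-D160N to control (4.14) and for CSF2 in SIVA-D160N (2.83 CPM). The HCC1954 control had no SIVA1 read, and whether this bears on its ratios was not tested.

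For IL32, SIVA-WT lay above control in both breast lines and below it in both ovarian lines, with mean log2 ratios 0.73 apart. In MDA-MB-231 both libraries had 34 reads, so the direction there comes from library scaling, and in SKOV3 the control had 9 reads and SIVA-WT 8. This difference was not tested.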

How the results depend on the processing

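Of the log2 fold changes of single genes under alternatives, 286 were counted as keeping their direction and side of the thresholds, 34 changed sign and 5 newly passed. The 286 include DESeq2 values of IL24, IL6 and CSF2 in SIVA-D160N against control and against SIVA-WT. These had no adjusted p, so only their direction could be compared. Those that changed sign passed the thresholds neither before nor after. When all 34909 genes with at least 1 count were fitted, edgeR called 172 genes in place of 1 in SIVA-D160N against control. It then called 3 members there (IL24 at 2.88, IL7R at 1.67 and IL1A at -1.80, adjusted p = 0.000919, 4.58e-05 and 0.0357), 1 (IL24) in SIVA-D160N against SIVA-WT with 59 genes in place of 0, and 1 (IL1B) in the interaction with tissue. In the fit by line, all of whose alternatives were chosen after seeing the data, it called 2 members in MDA-MB-231 (IL1A and IL1B), 1 in OVCAR8 (IL1B), 1 in SKOV3 (IL1A) and 3 in the difference among lines (IL6, IL1A and IL1B), with 24, 2 and 100 genes called in those lines in place of 0, 0 and 20, and 9 genes in place of 3 in HCC1954. The cause was not tested. For the interaction and the difference among lines, the number of all genes called without the filter is not given here. The member counts of these 2 tests thus stand without their share over all genes. DESeq2 called 1 member in MDA-MB-231, 1 in HCC1954 and 3 in SKOV3, and limma-voom 1 in MDA-MB-231, in the fit by line, where limma-voom called 3 genes for MDA-MB-231, 2 for HCC1954, 0 for OVCAR8 and 16 for SKOV3. DESeq2 called 33, 57, 5 and 114 genes in MDA-MB-231, HCC1954, OVCAR8 and SKOV3, and over lines it called 12 genes and limma-voom 27 in SIVA-D160N against control.

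Leaving out each line in turn, the members called in SIVA-D160N against control ran from 0 to 1, the 1 being IL1A without OVCAR8 (-3.15, adjusted p = 0.0276). Over all genes 0 were called without MDA-MB-231, 2 without HCC1954, 2 without OVCAR8 and 0 without SKOV3. In the difference among lines, 4 members in place of 0 were called without HCC1954 (IL6, LIF, IL1A and IL1B), with 763 genes in place of 1, and the cause was not tested. Over these fits the log2 fold change in SIVA-D160N against control ran from 2.93 to 4.06 for IL24 in the 3 fits that tested it, 1.20 to 2.68 for IL7R, -3.15 to -0.63 for IL1A, -0.78 to 1.39 for IL6, -0.55 to 0.19 for IL11, -0.39 to 0.66 for LIF, -1.88 to 0.26 for IL1B, -0.013 to 0.66 for IL32 and -0.92 to 2.48 for CSF2. In SIVA-WT against control it ran from -0.68 to 0.86 for IL6, -0.27 to 0.079 for IL11, -0.44 to 0.20 for LIF, -1.38 to 0.64 for IL1B, -0.052 to 0.40 for IL32 and -0.29 to 0.40 for CSF2. In SIVA-D160N against SIVA-WT it ran from -0.11 to 0.71 for IL6, -0.28 to 0.11 for IL11, -0.24 to 0.26 for IL32 and -0.63 to 2.08 for CSF2.

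Without the replicate block, that is without the term for the line, 0 members were called in each comparison, and signs turned for LIF (-0.24), IL1B (0.99) and IL32 (-0.18) in SIVA-D160N against control, for IL6 (0.26), IL1B (1.24) and IL32 (-0.039) in SIVA-WT against control and for IL32 (-0.14) between the transfectants. With limma-voom they turned for IL1B (0.67) in SIVA-D160N against control, IL6 (0.38), IL1B (0.95) and CSF2 (0.020) in SIVA-WT against control and IL32 (-0.080) between the transfectants. With only the 2 conditions compared they turned for IL6 (0.19) and CSF2 (0.034) in SIVA-WT against control and IL32 (-0.0064) between the transfectants. Members with fewer than about 10 reads in a line are limited by depth, and 1 library per line and condition leaves within-line ratios without a replicate check.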

Other observations

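Among 39 genes named as an interleukin by symbol and number, 12 reached 1 CPM in at least 1 library and 10 had no read. Apart from the members these were IL15, a T and NK cell growth factor, highest at 18.9 CPM in SKOV3 SIVA-D160N, IL12A at 3.05 CPM in OVCAR8 SIVA-WT, IL7 at 3.02 CPM in the SKOV3 control, IL33 at 2.44 CPM in the SKOV3 control and IL23A at 1.46 CPM in the MDA-MB-231 control.

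The following genes were picked from the lists after their values were seen, and their differences were not tested beyond the fits above. BIRC3, an inhibitor of apoptosis, had 33.2, 17.2 and 14.9 CPM in control, SIVA-WT and SIVA-D160N of MDA-MB-231, 19.9, 22.2 and 49.2 in HCC1954, 6.80, 15.7 and 19.9 in OVCAR8 and 0.795, 0.403 and 0.369 in SKOV3, so that it was below control in MDA-MB-231 and SKOV3 and above it in OVCAR8, as IL1A was. RELB had 668, 230 and 210 reads in MDA-MB-231, 333, 468 and 494 in OVCAR8, 635, 578 and 652 in HCC1954 and 147, 137 and 122 in SKOV3. Not all genes of the NF-kB list took this pattern. NFKBIZ, for example, was above control in SKOV3, at 30.2, 39.1 and 43.8 CPM. In HCC1954, IL1RL1, the receptor of IL-33, had 3, 4 and 90 reads and PIGR, a neighbour of IL24 on chromosome 1, had 1646, 1541 and 328.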
